A study of Rattus norvegicus with 6 samples.

Results

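The insulin-like growth factor (IGF) family was followed through the knockdown of the long non-coding RNA Tug1 in H9c2 cells. The family was taken as 10 gene symbols fixed by name: the ligands Igf1 and Igf2, the receptors Igf1r and Igf2r, and the binding protein genes Igfbp2 to Igfbp7. All 10 were present among the 40456 genes of the deposited count table, and 8 had enough counts to be tested. H9c2 (2-1) is an established rat cardiomyoblast line, labelled wild type and as a cardiomyocyte. Both groups were held for 5 days in medium with 1% serum and 1 µM retinoic acid, then given a 25 nM antisense locked nucleic acid gapmer by lipid transfection for 24 h. The control group (3 libraries) received a negative control gapmer and the knockdown group (3 libraries) a gapmer against Tug1. Each group thus rests on 1 oligonucleotide in 1 cell line, and the labels do not say whether the libraries of a group came from separate cultures, so p-values measure the spread between these libraries.

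IGF1 and IGF2 are small secreted hormones related to insulin. Both act through the IGF1 receptor, a tyrosine kinase that signals through docking proteins to the PI3K and AKT pathway and to the RAS and ERK pathway. The IGF2 receptor, which is also the cation-independent mannose 6-phosphate receptor, has no kinase and delivers IGF2 to lysosomes. The binding proteins hold IGFs in the fluid around cells and are cut by proteases that release them. In skeletal myoblasts, IGF2 made by the cells themselves is a known driver of differentiation, and IGFBP5 is known to be secreted by differentiating myoblasts.

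The oligonucleotides that define the groups are given first, 5′ to 3′ in lower case, as the labels state them. A gapmer pairs with its target RNA and directs RNase H to cut it.
Tug1 gapmer: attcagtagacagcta
negative control gapmer: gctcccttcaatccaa

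The windows around the annotated start sites of Igfbp5, Igf1r and Igfbp4 are printed because these were the members with the smallest p-values, of which Igfbp5 and Igf1r rose and Igfbp4 fell. They run from 250 bases before the start to 50 bases after it, come from RefSeq (build GRCr8), and have each CG dinucleotide in capitals. Igfbp5 lies at chr9:81914138-81914437 on the minus strand, Igf1r at chr1:130959747-130960046 on the plus strand, and Igfbp4 at chr10:84491221-84491520 on the plus strand.
Igfbp5: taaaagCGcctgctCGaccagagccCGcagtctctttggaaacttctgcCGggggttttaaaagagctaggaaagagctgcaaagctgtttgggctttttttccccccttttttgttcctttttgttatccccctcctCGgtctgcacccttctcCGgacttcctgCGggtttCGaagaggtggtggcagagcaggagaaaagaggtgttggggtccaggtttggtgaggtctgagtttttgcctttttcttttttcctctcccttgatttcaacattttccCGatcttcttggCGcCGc
Igf1r: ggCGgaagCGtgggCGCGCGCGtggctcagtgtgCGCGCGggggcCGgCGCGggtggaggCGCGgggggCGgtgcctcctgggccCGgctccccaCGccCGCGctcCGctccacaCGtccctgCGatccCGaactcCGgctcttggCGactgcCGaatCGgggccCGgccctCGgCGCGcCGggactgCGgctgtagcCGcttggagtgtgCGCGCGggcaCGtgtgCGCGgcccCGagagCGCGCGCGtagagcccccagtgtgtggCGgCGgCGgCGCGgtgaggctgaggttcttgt
Igfbp4: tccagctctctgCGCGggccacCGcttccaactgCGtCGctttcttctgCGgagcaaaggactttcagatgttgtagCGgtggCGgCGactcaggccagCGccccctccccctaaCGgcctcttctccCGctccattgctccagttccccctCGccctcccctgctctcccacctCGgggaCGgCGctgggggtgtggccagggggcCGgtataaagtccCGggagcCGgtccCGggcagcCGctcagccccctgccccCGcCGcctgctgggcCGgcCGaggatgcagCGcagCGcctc
The Igfbp5 window held 11 CG dinucleotides, the Igfbp4 window 27 and the Igf1r window 50, against a median of 7 and quartiles of 3 and 19 over 33469 RefSeq windows. A count of 50 or more occurred in 0.7% of those windows. The letters TATAAA, searched on both strands, were found in 14.2% of all windows and, among the 3 printed here, on the forward strand of the Igfbp4 window, 40 bases before the start. All 10 members matched this table, with 11 windows in all, 2 of them for Igf2. The counts do not show which start site was used.

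The 6 libraries held 12978548 to 13544337 counts each, so 1 CPM (counts scaled to library size, on the TMM scale) stood for 12.9 to 13.8 counts. The targeted RNA, Tug1, fell from 713, 672 and 718 counts in the controls to 164, 152 and 165 counts in the knockdown libraries, or 22.0% of the control CPM. Over all tested genes, 61.7% were called changed between the groups (edgeR adjusted p under 0.05), which is the background for the marker counts. The 10 cardiac marker genes summed to 359 to 390 CPM in controls and 417 to 469 CPM after knockdown. Tnnt2 supplied most of this sum with 4332 to 6051 counts per library, Actc1 had 115 to 259 counts and Gata4 137 to 179. Of these 3 tested markers, Tnnt2 (log2 fold change 0.24) and Actc1 (0.97) were called higher and Gata4 was not called. Myh6, Myh7, Nppb and Nkx2-5 never exceeded 3 counts in a library, and Tnni3, Nppa and Myl7 never exceeded 4, so the cells labelled cardiomyocyte held some transcripts of the list and had others at or near 0. The skeletal myoblast and myotube markers summed to 711 to 720 CPM in the control libraries and 1044 to 1086 CPM in the knockdown libraries. All 6 tested markers of that list were called, 5 higher and 1 lower, and Myf5 never exceeded 3 counts. The fibroblast list summed to 37180 to 38869 CPM in controls and 32267 to 34930 CPM after knockdown, with 1 of 5 tested markers higher and 2 lower. Col1a1 (log2 fold change -0.23, called lower) and Col1a2 (not called) supplied most of this sum. Of the other tested markers, Dcn rose (0.57), Thy1 fell (-0.40) and Lum was not called. The endothelial list summed to at most 4.47 CPM and the macrophage list to 10.9 to 12.5 CPM in controls and 15.4 to 17.5 CPM after knockdown. In the macrophage list Ptprc and Adgre1 had 0 counts throughout, Cd68 rose from 37, 61 and 42 counts to 88, 117 and 105 (log2 fold change 1.09; edgeR adjusted p 2.41e-05), and Csf1r, the other tested marker, had 95 to 124 counts and was not called. The part of these shifts in the IGF results was not tested. In such bulk libraries, fewer cells of a kind and less RNA per cell cannot be told apart.

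After knockdown, 3 tested members of the family rose (Igf1, Igf1r and Igfbp5), 2 fell (Igf2 and Igfbp4) and 3 did not pass the test (Igf2r, Igfbp6 and Igfbp7). Calls are those with an adjusted p under 0.05 in edgeR's quasi-likelihood fit, which covered 14216 genes. The share of called members (5 of 8, 62.5%) lay at the level of all tested genes, of which 61.7% were called, 30.8% as higher and 30.9% as lower. Control and knockdown libraries were fully separated for 5 of the 8 members and for 65.6% of all tested genes. The median log2 fold change (knockdown over control) was 0.14 over the 8 members and 0.00 over all tested genes, and the median absolute value was 0.22 against 0.34. The members' share of calls was thus near that of all genes, and the calls went in both directions.

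**Figure D1:**
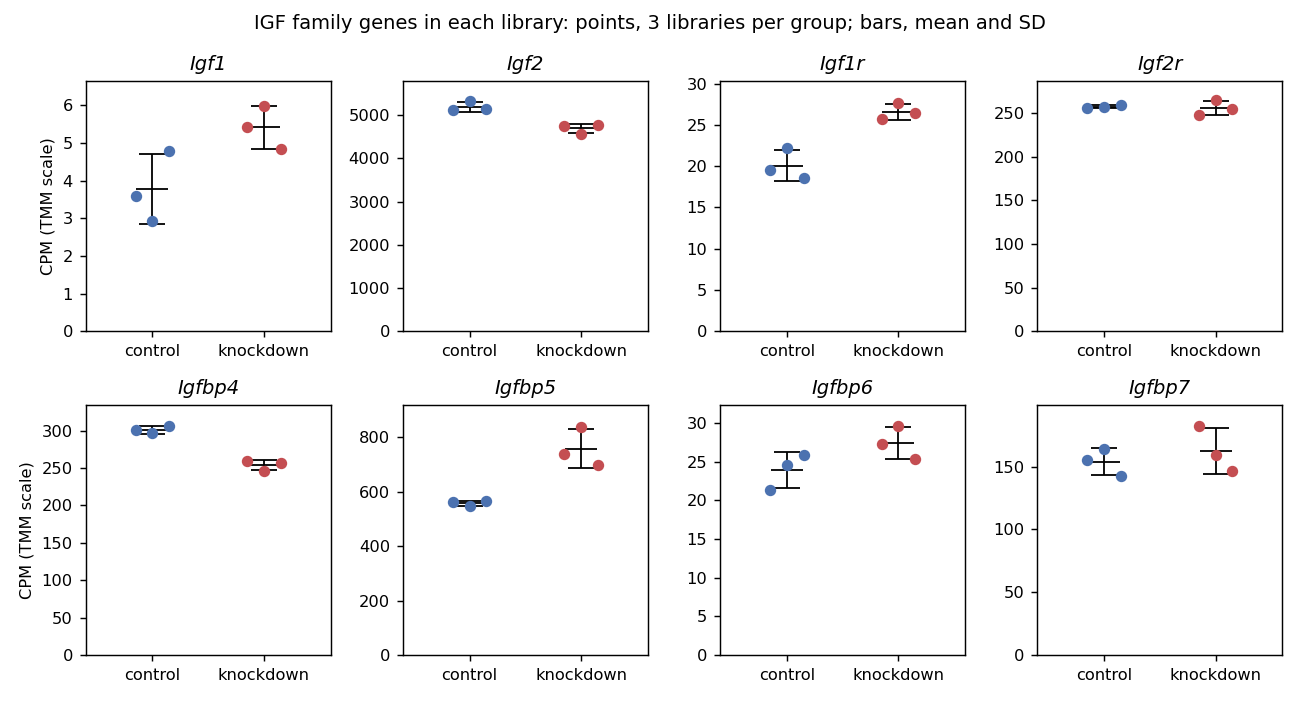
Each panel plots 1 of the 8 tested IGF family genes as CPM on the TMM scale, with 1 point per library (blue, control; red, Tug1 knockdown) and bars for the mean and SD of 3 libraries. The groups stand apart for Igf2, Igf1r, Igfbp4 and Igfbp5, nearly touch for Igf1 (4.78 and 4.83 CPM), and overlap for Igf2r, Igfbp6 and Igfbp7.

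Of the ligand genes, Igf2 was slightly lower after knockdown, while Igf1, measured by 38 to 81 counts in each library, was higher. Igf2 stood at 5112, 5322 and 5149 CPM in controls (values are always given in the order of replicates 1 to 3) and at 4741, 4569.8 and 4776 CPM after knockdown. The lowest control lay above the highest knockdown library. The mean went from 5195 ± 112 to 4696 ± 110.3 CPM (SD, n = 3), or 90.4% of the control level (log2 fold change -0.15, SE 0.0396; edgeR adjusted p 0.00285). Scaled by library totals instead of TMM, Igf2 was at -0.09 and still called lower (edgeR adjusted p 0.0413). Igf2 alone took 0.503%, 0.520% and 0.504% of all counts in the control libraries and 0.483%, 0.462% and 0.487% in the knockdown libraries.

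Igf1 had 47, 38 and 62 counts in the control libraries and 75, 81 and 64 in the knockdown libraries. On the CPM scale these were 3.60, 2.94 and 4.78 in controls against 5.44, 5.99 and 4.83 after knockdown. The highest control library (replicate 3) and the lowest knockdown library (replicate 3) nearly met. The mean rose from 3.78 ± 0.932 to 5.42 ± 0.579 CPM (SD, n = 3; log2 fold change 0.52, SE 0.190; edgeR adjusted p 0.0210). At 38 counts, counting error alone is 16.2% of a library's value. The call was lost with DESeq2's Wald test (adjusted p 0.057), at an edgeR threshold of 0.01, with an offset for gene length, and without control replicate 1, control replicate 2 or knockdown replicate 2.

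Of the receptor genes, Igf1r rose and Igf2r did not pass the test, and the difference between them was not tested. Igf1r, the signalling receptor, stood at 19.5, 22.1 and 18.5 CPM in controls and at 25.7, 27.6 and 26.4 CPM after knockdown, with no overlap. It rose to 133% of the control level (log2 fold change 0.41, SE 0.0857; edgeR adjusted p 0.000265). Igf2r, the clearance receptor, stood at 256, 257 and 259.5 CPM in controls and at 248, 265 and 255 CPM after knockdown. These values overlapped, and the log2 fold change, -0.01 (SE 0.0446; edgeR adjusted p 0.867), had a 95% interval from -0.10 to 0.08. Insr, which encodes the insulin receptor and can pair with the IGF1 receptor, rose from 37.8 ± 2.42 to 51.9 ± 2.44 CPM (SD, n = 3; log2 fold change 0.46, SE 0.0676). The ratio of Igf1r to Insr counts was 0.530 ± 0.0154 in controls and 0.512 ± 0.00677 after knockdown (SD, n = 3; exact permutation test, two-sided, p = 0.2, and 0.2 adjusted over 4 ratios).

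Gene length moved with the result for these receptors. Igf1r was longer in its genomic span than 97.5% of the tested genes with a span, Igf2r lay at the 85.1 percentile and Insr at the 92.0 percentile. The median log2 fold change was 0.33 in the 1309 longest tested genes and -0.21 in the 1307 shortest. An offset, estimated from these same libraries, removes this trend from each of them. It brought Igf1r to 0.04 (edgeR adjusted p 0.684), so its call was lost. Under the same offset Igf2r was called lower at -0.18 (edgeR adjusted p 0.000870), and Insr stayed higher at 0.21 (edgeR adjusted p 0.0118). Whether the trend is technical or part of the response to the knockdown was not tested.

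The binding protein genes held the smallest p-values of the family, with changes in opposite directions. Igfbp5 stood at 561, 548 and 565 CPM in controls and at 738, 838 and 698.5 CPM after knockdown. All knockdown libraries lay above all control libraries, with replicate 2 the highest. The mean rose from 558 ± 9.25 to 758 ± 71.6 CPM (SD, n = 3), or 136% of the control level (log2 fold change 0.44, SE 0.0522; edgeR adjusted p 1.35e-07). Igfbp4, whose product mostly restrains IGF action, stood at 300.4, 297 and 307 CPM in controls and at 259, 246 and 256 CPM after knockdown, again without overlap. It fell to 84.3% of the control level (log2 fold change -0.25, SE 0.0441; edgeR adjusted p 4.08e-05).

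Igfbp6 and Igfbp7 did not pass the test. Igfbp6, whose product prefers IGF2, stood at 21.4, 24.5 and 25.9 CPM in controls and at 27.3, 29.6 and 25.4 CPM after knockdown. Knockdown replicate 3 lay below control replicate 3, and the log2 fold change of 0.20 had a 95% interval, not adjusted for the number of genes, from 0.02 to 0.38 and an edgeR adjusted p of 0.0554. Igfbp6 was called higher with library totals (0.25), with the length offset (0.34), without control replicate 3 (0.26) and without knockdown replicate 3 (0.25), and it was at 0.12 without control replicate 1. Igfbp7, which encodes a more distant relative with weak IGF binding, stood at 155, 164 and 142 CPM in controls and at 182, 159 and 146 CPM after knockdown. Its libraries overlapped, and the log2 fold change was 0.08 with a 95% interval from -0.06 to 0.22 (edgeR adjusted p 0.299).

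Igfbp2 and Igfbp3 were at or near the limit of detection and were not tested. Igfbp3, whose product is the main IGF carrier in serum, had 0 counts in all 6 libraries, which allows up to 3 counts per library, or 0.217 to 0.232 CPM. Igfbp2 had 1, 2 and 6 counts in controls and 2, 1 and 4 after knockdown, too few for a fold change. In the GRCr8 gene order Igfbp2 is the direct neighbour of Igfbp5, which had 7074 to 11322 counts in the same libraries. Igfbp3 is the direct neighbour of Igfbp1, which also had 0 counts in all 6 libraries.

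The make-up of the binding protein transcripts shifted with these opposite changes. Igfbp5 took 53.8% ± 0.691 of the summed IGFBP counts in controls and 63.0% ± 2.48 after knockdown (SD, n = 3), while Igfbp4 took 29.0% ± 0.400 and 21.2% ± 1.72. The Igfbp7 share was 14.8% ± 1.12 in controls and 13.5% ± 1.39 after knockdown, and the Igfbp6 share 2.31% ± 0.221 and 2.28% ± 0.0390. These are shares of counts, in which longer transcripts weigh more, so they compare groups and not genes. The ratio of Igfbp5 to Igfbp4 counts does not depend on how libraries are scaled. It was 1.87, 1.85 and 1.84 in controls and 2.85, 3.40 and 2.72 after knockdown (exact permutation test on log2 ratios, two-sided, p = 0.1, the smallest that 3 against 3 libraries allow, and 0.133 adjusted over 4 ratios). The summed IGFBP level went from 1037 ± 3.97 to 1202 ± 73.1 CPM (SD, n = 3).

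**Figure D2:**
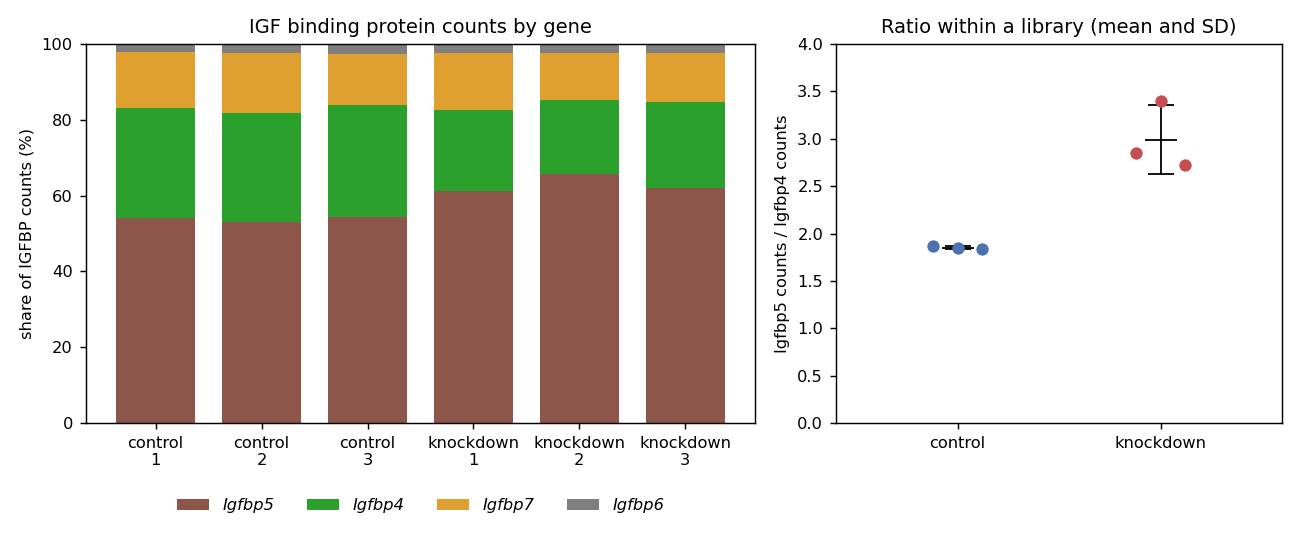
Left, stacked bars give the percentage of IGFBP counts from Igfbp5, Igfbp4, Igfbp7 and Igfbp6 in each of the 6 libraries (Igfbp2, at most 0.0444%, is too small to see and Igfbp3 is at 0). Right, the ratio of Igfbp5 to Igfbp4 counts in each library with the group mean and SD, from 1.84 to 1.87 in controls and from 2.72 to 3.40 after knockdown.

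Igf2 was also set against the genes that surround or regulate it. H19, the imprinted non-coding RNA encoded beside Igf2, rose from 9358 ± 18.7 to 10460.1 ± 545 CPM (SD, n = 3; log2 fold change 0.16, SE 0.0422; edgeR adjusted p 0.00214; 0.35 with the length offset), while Igf2 fell. The ratio of Igf2 to H19 counts was 0.546, 0.570 and 0.550 in controls and 0.433, 0.463 and 0.452 after knockdown, with no overlap (exact permutation test, two-sided, p = 0.1, and 0.133 adjusted over 4 ratios). The ratio of Igf2 to Igf2r counts was 20.2 ± 0.460 in controls and 18.4 ± 0.979 after knockdown (SD, n = 3; exact permutation test, two-sided, p = 0.1, and 0.133 adjusted over 4 ratios). Of the 8 genes listed as the Igf2 locus and regulators of its transcript, all were tested, and 3 rose and 3 fell (75% called, against 61.7% of all tested genes). The list had a median log2 fold change of -0.08 and a median absolute value of 0.56.

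Among the IGF2 mRNA-binding proteins, Igf2bp3 rose from 26.5 ± 0.250 to 47.2 ± 1.16 CPM (SD, n = 3; log2 fold change 0.83, SE 0.0677). Igf2bp1 fell by 0.52 on the log2 scale (SE 0.112), and Igf2bp2 was at -0.01 with a 95% interval from -0.13 to 0.11. With the length offset Igf2bp3 was at 0.59 and Igf2bp1 at -0.59, and Igf2bp2 was called lower (-0.20, edgeR adjusted p 0.00328). Of the DNA-binding factors known to act on Igf2, Hmga2 fell by 1.12 and Plag1 by 0.60 on the log2 scale, whereas Plagl1 rose by 0.95. Lin28b had 5 to 14 counts per library and did not pass the test.

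All 7 tested genes of the list of IGFBP proteases and their inhibitors were called, 2 higher and 5 lower, with a median log2 fold change of -0.25, in a comparison that called 61.7% of all tested genes. Pappa2, a metalloprotease that cuts IGFBP5, rose from 11, 12 and 13 counts to 31, 39 and 28 counts (log2 fold change 1.38, SE 0.288; edgeR adjusted p 0.000249). With the length offset Pappa2 was at 1.02. Stc1 and Stc2, stanniocalcins known to inhibit proteases of this family, fell by 1.14 (SE 0.157) and 1.12 (SE 0.122) on the log2 scale. Stc2 had 196 to 215 counts in controls and 84 to 113 after knockdown. The metalloproteases Adamts1 and Adam12 fell by 0.63 and 0.25 on the log2 scale (Adam12 by 0.63 with the length offset), the serine protease Htra1 fell by 0.14 (-0.23 with the length offset and -0.08, without a call, with library totals), and the lysosomal protease Ctsd rose by 0.16. Pappa, also on this list, had no entry under that symbol among the deposited counts, so it could not be analysed.

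A further list held 9 genes linked to IGF and insulin by name or role, not all of them relatives. Of these, 4 were tested, and all 4 were called higher: Insr, Ins2, Igfals and Igflr1. The call of Ins2 (log2 fold change 0.52) was lost with the length offset (0.25, edgeR adjusted p 0.0587). Igfals, which encodes the acid-labile subunit of the serum IGF complex, had 6, 4 and 2 counts in controls and 11, 15 and 11 after knockdown, and Igflr1 had 9, 8 and 2 against 19, 24 and 15. Both passed the expression filter only through their knockdown libraries and were dropped at a mean of 1 CPM, so the count of 4 supports no direction for this list.

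**Figure D3:**
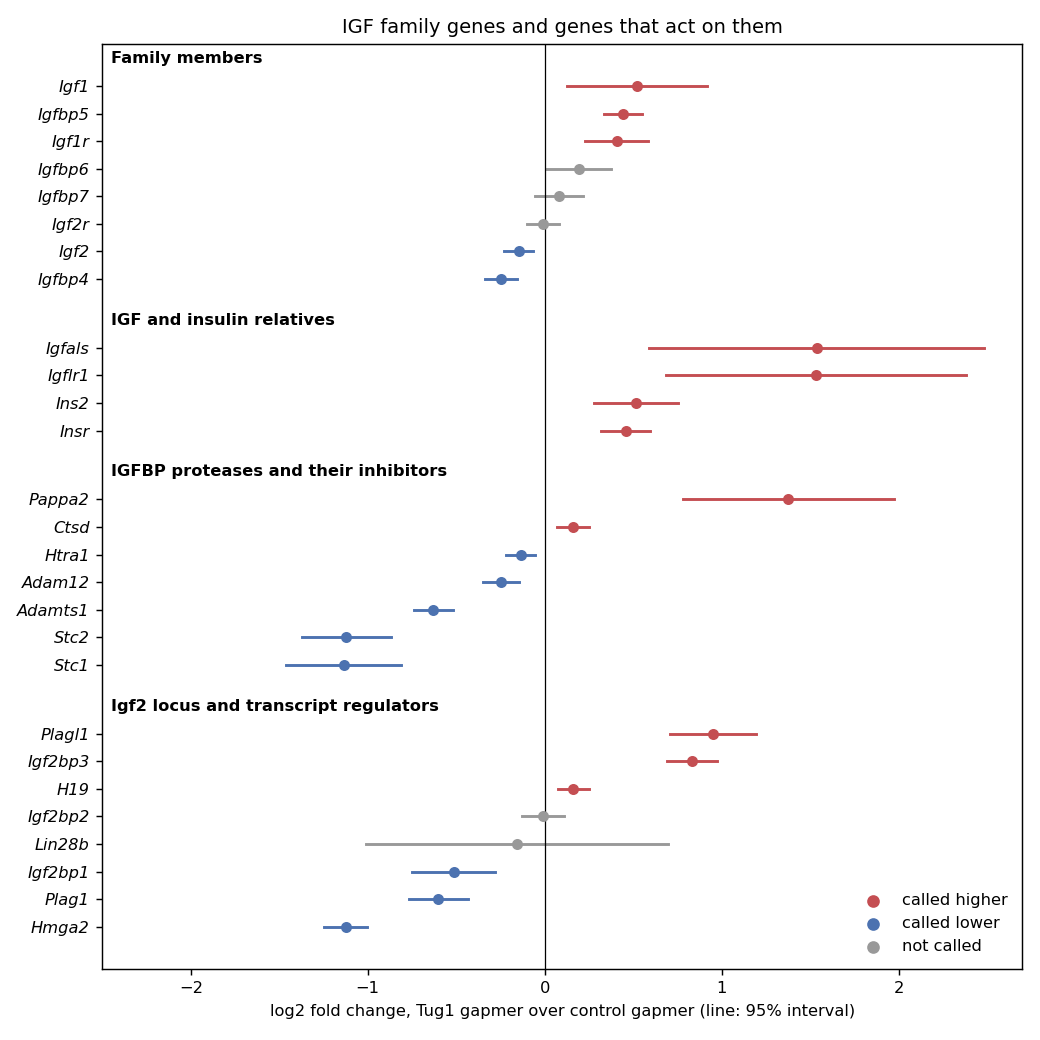
Points give the log2 fold change of the Tug1 gapmer over the control gapmer for the tested family members and for the 3 lists closest to them. Lines give 95% intervals (red, called higher; blue, called lower; grey, not called). The family members lie between -0.25 and 0.52, while Stc1, Stc2 and Hmga2 lie below -1 and Igfals, Igflr1 and Pappa2 above 1 with wide intervals.

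Downstream of the receptors, 11 of 16 tested adaptors and substrates (68.8%, against 61.7% of all tested genes) were called, 8 higher and 3 lower. With the length offset these numbers were 7 and 3. The main docking protein genes of the IGF1 receptor, Irs1 (log2 fold change -0.01, SE 0.0666) and Irs2 (-0.09, SE 0.0685), did not pass the test. Grb10, an adaptor that restrains the IGF1 and insulin receptors, rose from 59.6 ± 1.06 to 110.5 ± 1.01 CPM (SD, n = 3; log2 fold change 0.89, SE 0.0530). Grb14, which encodes a related adaptor, rose by 0.40 (SE 0.0772). With the length offset Grb10 was at 0.69 and Grb14 at 0.18. Beside Grb10, the 4 genes with the smallest p-values were Ptpn11 (0.60), a phosphatase gene, Sos2 (0.88), a RAS exchange factor gene, Crkl (-1.15), an adaptor gene, and Socs2 (-1.47), a feedback inhibitor gene. With the length offset Ptpn11 was at 0.48 and Crkl at -1.19, and Sos2 was at 0.67 with that offset and the replicate block.

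In the PI3K, AKT and mTORC1 list, 20 of 29 tested genes were called (69.0%, near the 61.7% of all tested genes). Of these, 12 were higher and 8 lower, against 8 and 8 with the length offset. The 5 with the smallest p-values were the kinase gene Gsk3b (0.89), the mTOR inhibitor gene Deptor (0.76), the mTORC2 subunit gene Mapkap1 (0.77), the translation repressor gene Eif4ebp1 (-0.64) and the S6 kinase gene Rps6kb1 (0.65). With the length offset Gsk3b was at 0.62, Deptor at 0.47 and Mapkap1 at 0.45. Rps6kb1 was at 0.57 with that offset and the replicate block. Akt1, which encodes the central kinase of this pathway, fell by 0.38 on the log2 scale. The list of FoxO factors, which AKT keeps out of the nucleus, and their known targets held 18 tested genes. Of these, 14 (77.8%) were called, 11 higher and 3 lower (10 and 4 with the length offset). The median log2 fold change of the 18 was 0.43. Over all tested genes 61.7% were called, 30.8% as higher, and the median was 0.00. Foxo1 itself rose by 1.04 (SE 0.118). The 5 smallest p-values of that list were those of Gadd45a (0.66), Sod2 (0.76), Cited2 (-0.72), Sesn3 (0.50) and Txnip (-0.58), genes that also respond to other factors. Of the muscle ubiquitin ligase genes, Fbxo32 rose by 0.48, and Trim63 was at -0.06 and did not pass the test (edgeR adjusted p 0.343).

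**Figure D4:**
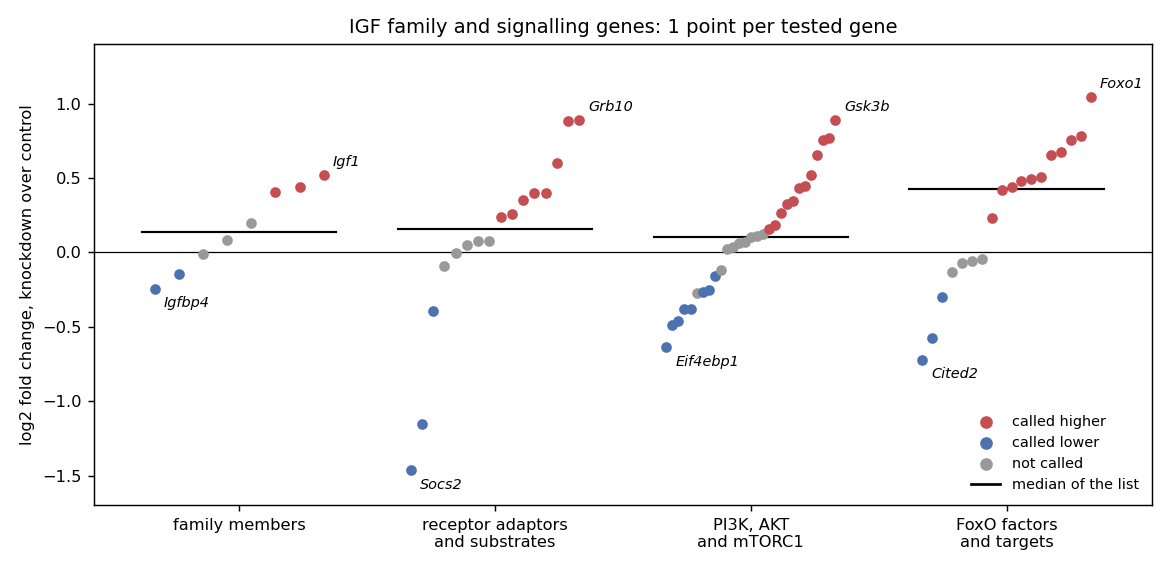
Each point is the log2 fold change (knockdown over control) of 1 tested gene, sorted within the family and 3 signalling lists, with black lines at the list medians (red, called higher; blue, called lower; grey, not called). The medians are 0.14 for the family, 0.16 for adaptors and substrates, 0.11 for the PI3K list and 0.43 for the FoxO list, and the lowest and highest gene of each list is named.

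The members also varied among the libraries of a group. Counting error in the library with the fewest counts was 0.402% of the value for Igf2, 1.19% for Igfbp5, 6.46% for Igf1r and 16.2% for Igf1. Knockdown replicate 2 had the highest knockdown value of Igf1, Igf1r, Igf2r, Igfbp5 and Igfbp6 and the lowest of Igf2 and Igfbp4. Without that library, Igfbp5 was still called higher at 0.37, Igf1r at 0.38 stayed called, and Igf1 at 0.45 was not called (edgeR adjusted p 0.0733). By the absolute log2 fold change, Igf1 lay at the 67.7 percentile of all tested genes, Igfbp5 at the 60.5 percentile, Igf1r at the 57.0 percentile, Igfbp4 at the 37.7 percentile, Igf2 at the 23.2 percentile and Igf2r at the 1.46 percentile.

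The members differed in how firmly their changes held. Igf2, Igfbp4 and Igfbp5 kept their direction and call in all 16 alternatives, with log2 fold changes from -0.16 to -0.09, from -0.26 to -0.18 and from 0.37 to 0.51. Igf1r kept its call in every alternative except the length offset, alone or with the replicate number as a block. Igf1 stayed higher throughout, from 0.37 to 0.73, but was called in 9 of 16. The use of strand in counting was not stated, so values of overlapping genes are uncertain to that extent. In GRCr8 Igf2, Igf1r, Igf2r, Igfbp4 and Igfbp7 each overlap at least 1 other annotated entry, Pgpep1l for Igf1r and Polr2b for Igfbp7 among them. The same holds for H19 and Ins2.

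**Figure D5:**
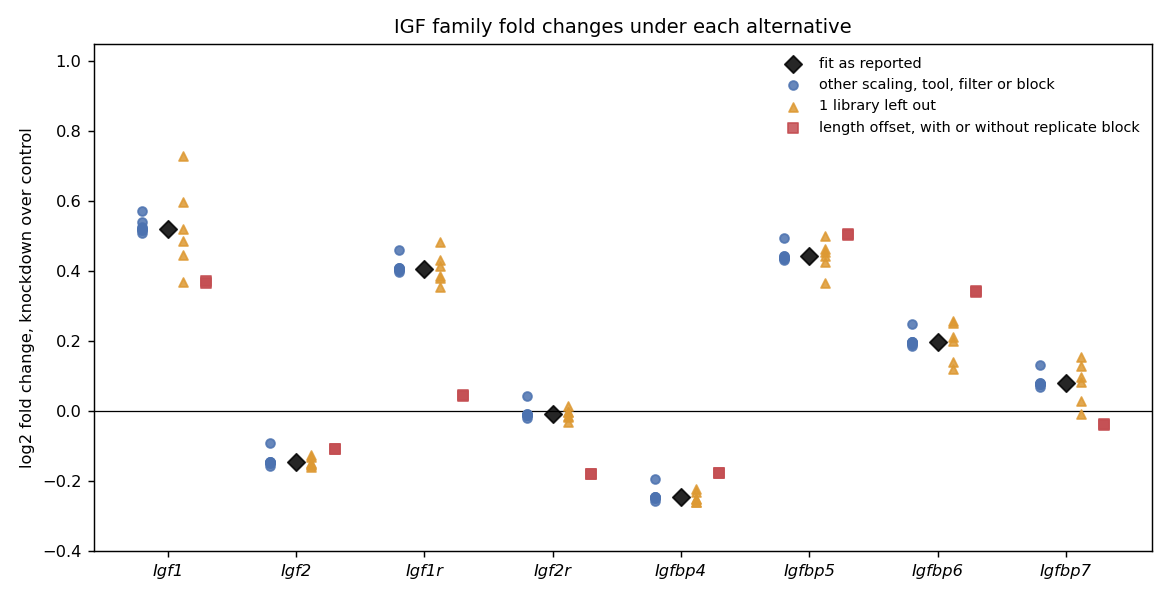
For each tested member, the log2 fold change of the fit as reported (black diamond) is set beside other scalings, tools, filters and the replicate block (blue circles), fits without 1 library (orange triangles) and the length offset (red squares). The points of Igf1, Igf2, Igfbp4, Igfbp5 and Igfbp6 keep to 1 side of zero. So do those of Igf1r, which falls to 0.04 with the length offset, while Igf2r and Igfbp7 cross zero.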

How the data were processed

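The authors deposited raw whole-number counts per gene for each of the 6 poly-A libraries, unscaled and unpooled, as the values show. Per the submitters' processing notes, FastQC 0.11.7, fastp 0.14.1 and STAR 2.5 were used. The counting tool, build, annotation, strand setting and handling of shared reads are not given in the sources used here. Every column belonged to 1 of the 6 libraries, and every entry had a name.

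Counts were fitted in R 4.3.3 with edgeR 4.0.16 (expression filter with minimum count 10 and minimum total 15, TMM, quasi-likelihood test, prior count 0.125, no block), and p-values were adjusted by Benjamini-Hochberg over all 14216 tested genes. SEs follow from the F statistic. The alternatives were DESeq2 size factors, library totals, DESeq2's Wald test (1.42.0), limma-voom (limma 3.58.1), no filter, a mean of 1 CPM, an adjusted p of 0.01, the replicate block, an offset for genomic span (lowess, span 0.3, 13084 genes with a span in RefSeq GRCr8), that offset with the block, and each library left out. Within-library ratios were compared by exact permutation. The fit was tested on simulated data in which few genes changed, evenly in both directions and without a trend by gene length. That setting differs from these data, so it does not show the rate of false calls here.

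The members, the 7 lists and the alternatives were chosen with earlier results of these data known. Named genes were all members, tested genes of the 3 lists closest to the family, and in each signalling list the 5 smallest p-values and genes needed for their role. Counting error limits only what sequencing depth can show. Transcript lengths and protein sequences were not used here, so levels are not compared between genes.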

Additional observations from a re-analysis of the deposited data

How the results depend on the processing

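Over 16 alternatives, the number of changed genes ran from 7353 (adjusted p of 0.01) to 8987 (no filter), with 8128 to 8410 in the 6 fits on 5 libraries. The number of called members ran from 4 to 6, and over the same range in those 6 fits. Of 128 combinations of member and alternative, 107 kept direction and call, 9 lost the call, 7 gained one and 5 changed sign. Of 653 such combinations for 41 other named genes, the numbers were 639, 3, 2 and 9. Some of these genes were named for their small p-values in the same fit, so their calls were likely to hold. Their numbers are thus no measure for those of the members. Changes of sign concerned only genes that were not called. With library totals, Igf2r was at 0.0434, Igf2bp2 at 0.0409 and Irs1 at 0.0461. With the length offset, Igfbp7 was at -0.037 and Trim63 at 0.00096, and with the replicate block added at -0.0399 and 0.00197. In the fits that left out 1 library each, Igf2r ranged from -0.0327 to 0.0140, Igfbp7 from -0.00822 to 0.154, Igf2bp2 from -0.0392 to 0.0215, Irs1 from -0.0458 to 0.0453 and Lin28b from -0.475 to 0.164. For all of these the cause was not tested. Library totals moved the median of all genes to 0.06 and the share of higher genes among the called ones from 50.0% to 55.8%.

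The labels state no pairing, so libraries that share a replicate number were not treated as pairs. Their deviations had correlations of -0.00531, 0.0298 and 0.027 across genes. These correlations weigh genes with few and many counts alike, so they cannot exclude pairing. With the replicate block 8848 genes were called, and the same 5 members. Depth limits Igf1, Igfals, Igflr1, Pappa2 and Lin28b most, and leaves Igfbp2 and Igfbp3 without a test.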

Other observations

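Ins2, an insulin gene whose product is made in pancreatic beta cells, had 117, 119 and 114 counts in controls and 164, 186 and 172 after knockdown (log2 fold change 0.52, SE 0.114; edgeR adjusted p 0.000441). It is the next named coding gene beyond Igf2 in the GRCr8 order, and its annotated span exceeds that of 92.9% of the tested genes with a span. That span overlaps another annotated entry, so its counts are uncertain to that extent. With the length offset Ins2 was at 0.25 and not called (edgeR adjusted p 0.0587). Ins1 had 0 counts in all 6 libraries. The growth hormone receptor gene Ghr had 1, 1 and 0 counts in controls and 2, 3 and 3 after knockdown, all at or under the limit of 3 counts.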
